A study of Mus musculus with 4 samples.

Results

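Genes of cholesterol and fatty acid synthesis, and of cholesterol export, were examined in mouse B cells, which had been purified by sorting from cervical lymph nodes, those of the neck. They are 32 genes picked by name for their place in these pathways, out of 23418 gene symbols in the table, and all 32 had enough reads to be tested. One of them, Msmo1, was counted under its older symbol Sc4mol and was matched through RefSeq. A control strain with the genotype BL/10 was compared with the strain NOD.B10, a strain on the autoimmune-prone NOD background that develops a disease like Sjögren's disease, the subject of the series. Each strain had 2 libraries of RNA, with no treatment named, and total counts from 19328803 to 29372751 reads. The sources used here do not give age, sex or the number of mice behind a library, and nothing says whether both libraries of a strain are from different mice. P-values therefore measure only the spread between these libraries, which may be technical.

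Cells build cholesterol from acetyl-CoA through mevalonate and squalene, and build fatty acids from the same precursor. The transcription factors SREBP-2 (gene Srebf2) and SREBP-1 (Srebf1) turn on these pathways when sterols in the endoplasmic reticulum run low. The escort protein Scap carries them to the Golgi for activation, and Insig proteins hold them back when sterols are plentiful. The liver X receptors (LXR), which sense oxidised cholesterol, act in the other direction by turning on the exporters Abca1 and Abcg1, and they also raise Srebf1 and Scd1. Lymphocytes lower export and raise synthesis when they divide.

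RefSeq promoter windows (GRCm38.p6, the assembly of mm10) were used for 24 of the 32 genes, all but Scd1, Scd2, Fads1, Abcg1, Fdps, Fdft1, Stard4 and Sqle. The 250 bases before the start site are shown for 4 of the synthesis genes whose levels moved together between libraries of a strain (values further on). Mvd also moved with them and has a window, which is not shown. The window of Hmgcs1 lies at chr13:119690101-119690350 on the plus strand, Idi1 at chr13:8885356-8885605 on the plus strand, Cyp51 at chr5:4104698-4104947 on the minus strand and Msmo1 at chr8:64733579-64733828 on the minus strand. Capitals mark the letters CCAAT, the box bound by NF-Y, a partner of SREBP, or TCACNCCA, a core of the sterol response element bound by SREBP, on either strand; these matches do not overlap in the windows shown.
Hmgcs1: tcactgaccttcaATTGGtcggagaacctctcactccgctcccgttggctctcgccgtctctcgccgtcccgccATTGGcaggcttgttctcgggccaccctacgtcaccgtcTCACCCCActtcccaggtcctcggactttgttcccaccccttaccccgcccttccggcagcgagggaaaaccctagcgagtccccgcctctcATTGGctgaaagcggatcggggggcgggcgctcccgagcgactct
Idi1: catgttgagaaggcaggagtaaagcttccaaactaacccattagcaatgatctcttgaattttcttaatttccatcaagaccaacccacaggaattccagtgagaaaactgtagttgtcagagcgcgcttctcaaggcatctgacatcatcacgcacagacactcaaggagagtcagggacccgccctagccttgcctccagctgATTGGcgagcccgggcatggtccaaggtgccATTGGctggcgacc
Cyp51: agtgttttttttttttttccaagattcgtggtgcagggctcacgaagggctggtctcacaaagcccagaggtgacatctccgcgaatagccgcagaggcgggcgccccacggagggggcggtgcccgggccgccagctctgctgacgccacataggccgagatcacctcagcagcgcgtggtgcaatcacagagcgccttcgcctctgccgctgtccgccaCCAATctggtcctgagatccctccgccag
Msmo1: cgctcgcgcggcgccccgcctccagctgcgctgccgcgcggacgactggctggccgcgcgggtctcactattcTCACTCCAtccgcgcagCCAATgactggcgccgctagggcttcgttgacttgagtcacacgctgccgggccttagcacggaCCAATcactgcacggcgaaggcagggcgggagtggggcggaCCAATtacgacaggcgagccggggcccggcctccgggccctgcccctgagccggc

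The letters CCAAT stood in the window of 17 of the 24 genes and in 37.5% of the 27025 genes with any window of this length. Among them were 11 of the 11 sterol synthesis genes with a window and 6 of the other 13 genes. Synthesis genes that did not move between libraries had the letters too: Mvk 5 times, Hsd17b7 3 times, and Lss and Sc5d 1 time each. TCACNCCA was found for Hmgcs1, Msmo1 and Srebf2, against 4.20% of all genes, and the longer form TCACNCCAC, which holds the shorter, for Hmgcs1 alone, against 1.22% of all genes. Abca1 had no match to CCAAT or TCACNCCA in its window, and neither had Acly, Acaca, Elovl6, Scap, Nr1h2 or Fads2. The window of Acaca, at chr11:84195188-84195437 on the plus strand, lies inside the span of the gene, which begins at 84129635. It therefore does not cover a promoter at that beginning. The CCAAT and TCACNCCA letters counted here are matches in a short window and do not show that a factor binds there.

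Few genes of the pathway passed the test between strains. In edgeR's quasi-likelihood test, with p-values adjusted by the Benjamini-Hochberg method over 13075 genes and a gene called at an adjusted p under 0.05, 2 of the 32 genes were called lower in NOD.B10, Scd2 and Fads1, and 0 were called higher. Of all genes tested, 8.63% were called lower and 6.55% higher, so the 6.25% of members called lower lay near the background. The count called higher was also 0 with DESeq2 and with limma-voom, while 5 members were higher and 5 lower, the called genes included, at an unadjusted p under 0.05. Of all genes tested, 12.5% were higher and 14.3% lower at that unadjusted threshold. The median log2 fold change (NOD.B10 over BL/10) was −0.08 over the 32 genes and −0.003 over all genes tested. For 14 of the 32 genes the 95% interval of the difference lay within 1.5-fold either way. For another 16 that were not called it reached further. Levels of the strains did not overlap for 7 members higher in NOD.B10 and 11 lower, against 27.9% and 27.7% of all genes. When the second BL/10 library was left out, 5 members were called lower, against 8.93% of all genes tested in that fit. When the first was left out, 1 member, Abca1, was called higher, against 5.55% of all genes.

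**Figure D1:**
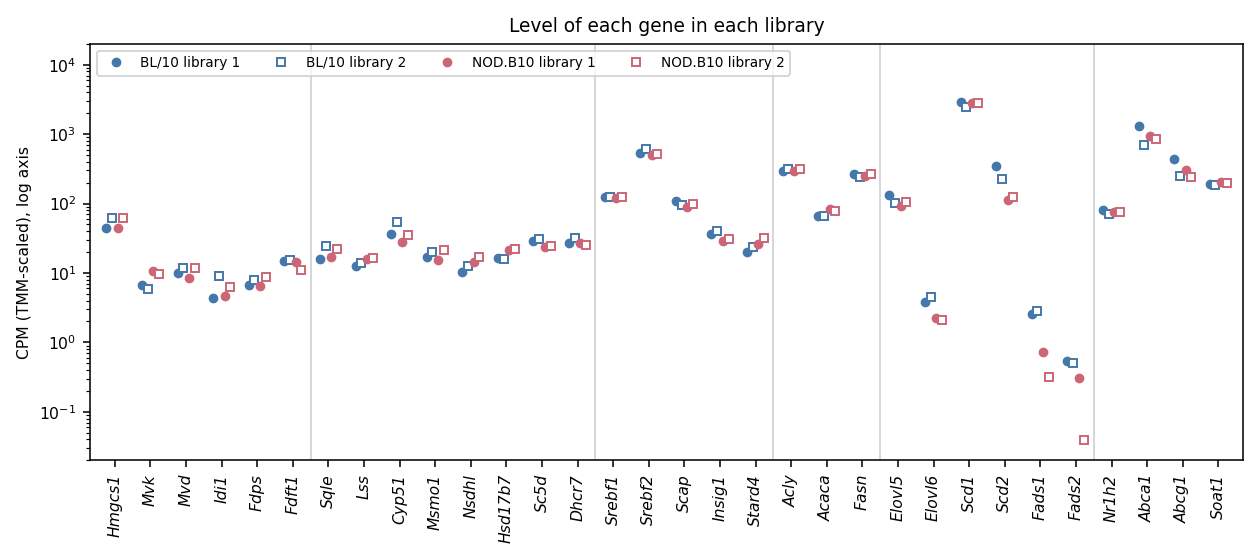
CPM (counts per 1000000 reads, TMM-scaled, log axis) of each of the 32 genes in each of the 4 libraries, grouped by role from mevalonate enzymes on the left to export genes on the right; each point is 1 library. The strains lie close for most genes, and Scd2 and Fads1 lie lower in both NOD.B10 libraries.

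**Figure D2:**
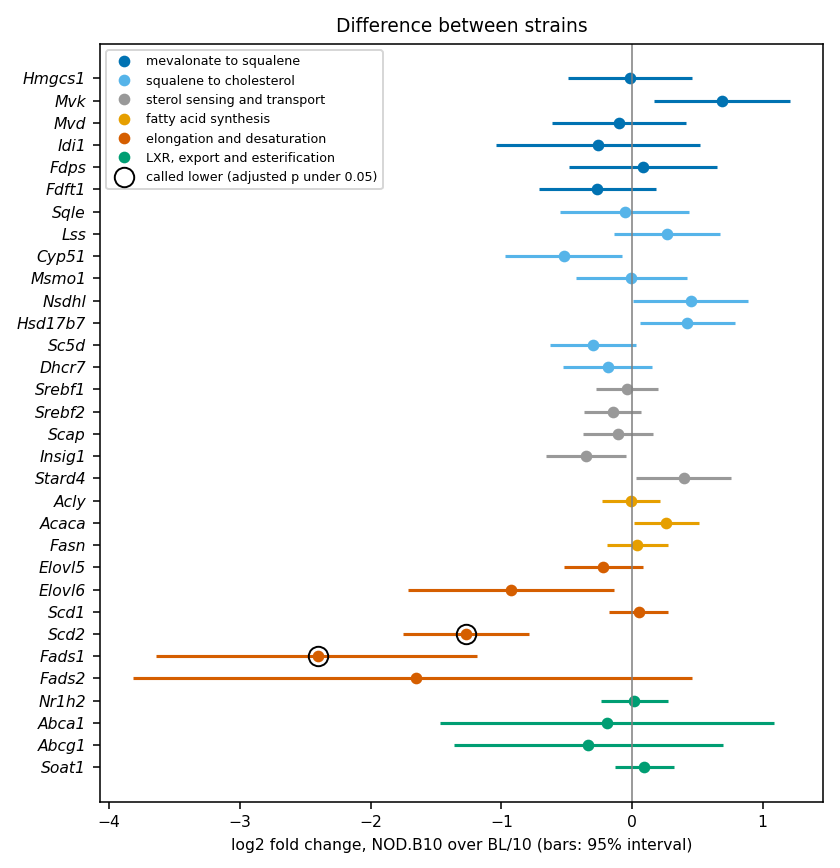
Log2 fold change, NOD.B10 over BL/10, of each gene with its 95% interval, coloured by role; rings mark the 2 genes called lower. Intervals of most genes cross or lie near 0, and those of Abca1 and Abcg1 are wide.

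Of the 6 enzymes that lead from acetyl-CoA units to squalene, 0 were called, while 1 of them, Mvk, reached an unadjusted p under 0.05. At that threshold 12.5% of all genes tested were higher and 14.3% lower. Hmgcs1, which makes HMG-CoA, stood at 44.1 and 62.2 CPM in the first and second BL/10 library and at 44.1 and 61.0 CPM in the NOD.B10 libraries. The strains therefore spanned nearly the same range. The log2 fold change of Hmgcs1 was −0.01 (SE 0.205), with a 95% interval from 0.713-fold to 1.37-fold. Mvk, mevalonate kinase, was at 6.65 and 5.93 CPM in BL/10, against 10.8 and 9.56 CPM in NOD.B10, with no overlap. This was the highest fold change among the 32 genes, 1.61-fold with an interval from 1.12 to 2.32, and it did not pass the test over all genes (adjusted p = 0.0748). Mvd, the decarboxylase that follows, had a log2 fold change of −0.10, and Idi1 and Fdps, which make and join the isoprene units, −0.26 and 0.08. Fdft1, squalene synthase, stood at 14.9 and 15.6 CPM in BL/10, against 14.5 and 10.9 CPM in NOD.B10, a log2 fold change of −0.26 (adjusted p = 0.475). The summed level of these 6 enzymes was 99.7 ± 18.1 CPM in BL/10, against 98.9 ± 13.9 CPM in NOD.B10 (SD, n = 2).

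The 8 enzymes that turn squalene into cholesterol were likewise not called. Among them 3 had an unadjusted p under 0.05, where 12.5% of all genes tested were higher and 14.3% lower. Cyp51, the lanosterol demethylase, was at 36.0 and 54.7 CPM in BL/10, against 28.3 and 34.7 CPM in NOD.B10. Its libraries did not overlap, yet the higher NOD.B10 library lay close to the lower BL/10 library. Its log2 fold change was −0.52 (SE 0.200, adjusted p = 0.122). It ran from −0.79 without the first BL/10 library (adjusted p = 6.44e-04) to −0.20 without the second (adjusted p = 0.529), and it was called without the second NOD.B10 library as well (adjusted p = 0.011). Nsdhl and Hsd17b7, which work in the removal of the methyl groups at carbon 4 of the sterol, lay above BL/10 in each NOD.B10 library, with log2 fold changes of 0.45 and 0.42 (adjusted p = 0.174 and 0.12). Hsd17b7 had 16.7 and 15.9 CPM in BL/10, against 21.6 and 22.1 CPM in NOD.B10, a gap wider than the spread within either strain. Sqle, squalene epoxidase, and Msmo1, the methylsterol oxidase, differed by −0.06 and −0.01 on the log2 scale. Lss, lanosterol synthase, had a log2 fold change of 0.27, and the late enzymes Sc5d and Dhcr7 of −0.30 and −0.18. The summed level of the 8 was 185 ± 28.7 CPM in BL/10, against 173 ± 14.5 CPM in NOD.B10. Enzymes of 1 pathway thus lay on both sides of 0, none of them past the threshold.

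None of the 5 genes of sterol sensing and transport was called. Among them 2, Insig1 and Stard4, had an unadjusted p under 0.05, where 12.5% of all genes tested were higher and 14.3% lower. Srebf2 was at 541 and 604 CPM in BL/10, against 509 and 526 CPM in NOD.B10, a log2 fold change of −0.15 (SE 0.101) with an interval from 0.776-fold to 1.05-fold. Srebf1 was at 126 ± 0.302 CPM in BL/10, against 122 ± 2.51 CPM in NOD.B10, and its interval ran from 0.828-fold to 1.15-fold. Scap had a log2 fold change of −0.11 and an interval from 0.772-fold to 1.12-fold. Insig1, itself a target of SREBP, stood at 36.5 and 40.4 CPM in BL/10, against 29.3 and 30.9 CPM in NOD.B10, without overlap (log2 fold change −0.35, adjusted p = 0.123). Stard4, a carrier of cholesterol between membranes, lay the other way, at 22.0 ± 2.75 CPM in BL/10, against 28.9 ± 3.84 CPM in NOD.B10, without overlap (log2 fold change 0.39, adjusted p = 0.152). Per kilobase of transcript, Srebf2 ranked next to Scd1 at the top of the 32 genes in both strains, with 125 CPM per kb in BL/10 and 113 in NOD.B10.

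The 3 genes of fatty acid synthesis had narrow intervals and were not called. Acly, which makes cytosolic acetyl-CoA from citrate, was at 302 ± 16.9 CPM in BL/10, against 301 ± 14.9 CPM in NOD.B10, with an interval from 0.853-fold to 1.16-fold. Fasn, fatty acid synthase, was at 252 ± 19.3 and 259 ± 16.3 CPM (0.874-fold to 1.21-fold). Acaca, the acetyl-CoA carboxylase of the committed step, was at 66.7 and 67.2 CPM in BL/10, against 83.6 and 77.2 CPM in NOD.B10, 1.2-fold with an interval from 1.01 to 1.43 (adjusted p = 0.163). These intervals leave out a 1.5-fold difference in either direction for all 3 genes.

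The genes that lengthen and desaturate fatty acids held both calls. Scd2, one of the stearoyl-CoA desaturases that put the first double bond into saturated fatty acids, was at 346 and 225 CPM in BL/10, against 113 and 124 CPM in NOD.B10. Both NOD.B10 libraries lay below both BL/10 libraries, although the BL/10 libraries differed from each other. The fall was 2.41-fold with an interval from 1.72 to 3.37 (log2 fold change −1.27, SE 0.202, adjusted p = 0.00735). Its neighbour Scd1, which had 559 CPM per kb in BL/10 where Scd2 had 52.4, was at 2924 and 2484 CPM in BL/10, against 2813 and 2786 CPM in NOD.B10, and the strains overlapped. The interval of Scd1 ran from 0.887-fold to 1.21-fold. Scd2 lies on chromosome 19 (GRCm38) from 44293676 to 44306864, with 87.6 kb between it and Scd1. Per kilobase, Scd2 stood at 10.5% and 8.05% of Scd1 in the BL/10 libraries and at 3.58% and 3.94% in the NOD.B10 libraries. This ratio did not overlap between strains, and an exact two-sided permutation test on its logarithm gave p = 0.333, the smallest value 2 against 2 libraries allow. Scd genes are close copies, so reads shared between them could have been counted to either or to none.

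Fads1, the delta-5 desaturase of polyunsaturated fatty acid synthesis, was at 2.53 and 2.87 CPM in BL/10, against 0.726 and 0.313 CPM in NOD.B10. That is 75 and 74 reads against 14 and 8, so the level was low in all libraries and still did not overlap. The fall was 5.29-fold with an interval from 2.28 to 12.5 (log2 fold change −2.40, SE 0.567, adjusted p = 0.011). Across the alternatives tried, the adjusted p of Fads1 ran from 1.46e-04 to 0.0483 and that of Scd2 from 7.40e-24 to 0.00714, so both stayed called in each. Fads1 lies on chromosome 19 from 10182877 to 10196874. Its neighbour Fads2, the delta-6 desaturase, had 16 and 13 reads in BL/10 and 6 and 1 in NOD.B10, too few for a narrow estimate (log2 fold change −1.65, adjusted p = 0.317). Fads3, the next gene of the cluster and not a member, had 14 and 4 reads in BL/10 and 0 in both NOD.B10 libraries, which allows up to 0.0669 CPM over the group for counting error, and was below the filter. On the other side of Fads1, Fen1 and Tmem258 had log2 fold changes of −0.01 and 0.01, so the low values did not extend to those neighbours. Myrf, the gene beyond them, was at 5.10 and 5.54 CPM in BL/10, against 3.16 and 4.11 CPM in NOD.B10. It did not overlap and was not called (log2 fold change −0.54, adjusted p = 0.313). Elovl6, which lengthens palmitate, was at 3.85 and 4.50 CPM in BL/10, against 2.28 and 2.12 CPM in NOD.B10, without overlap (log2 fold change −0.92, adjusted p = 0.115). Elovl5, which lengthens polyunsaturated fatty acids, had a log2 fold change of −0.22 and was called lower only without the second BL/10 library (−0.41, adjusted p = 0.0237). In bulk RNA, fewer cells of a type and less RNA per cell cannot be told apart.

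**Figure D3:**
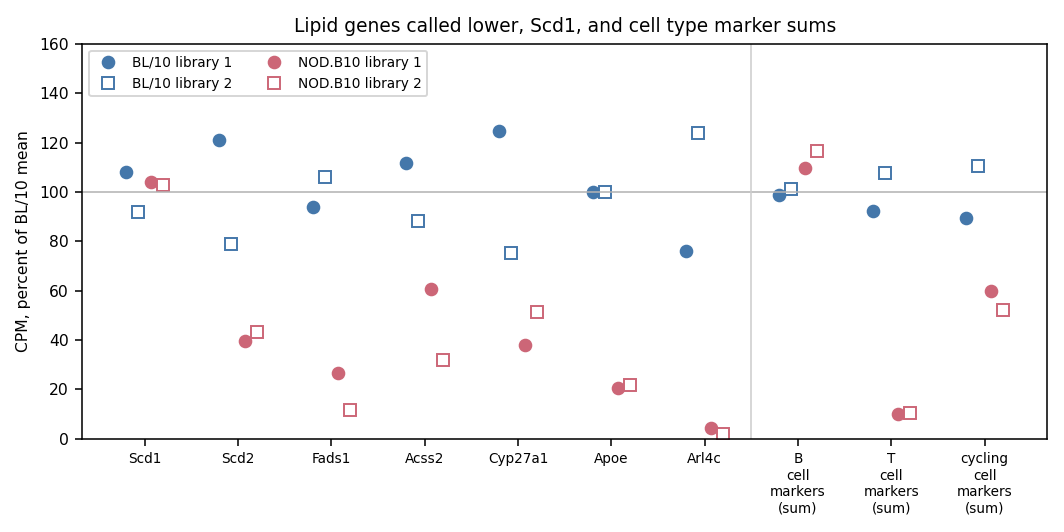
CPM in each library as a percent of the BL/10 mean for Scd1, for the 6 lipid genes called lower, and for summed B cell, T cell and cycling cell markers; circles are the first and squares the second library of a strain. Scd1 stays near 100% in all libraries while the called genes and the T cell sum lie lower in NOD.B10.

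On the export side 0 of 4 genes were called, and their intervals differed in width. Abca1, which loads cholesterol onto lipid-poor apolipoprotein, was at 1326 and 708 CPM in the BL/10 libraries and at 941 and 841 CPM in the NOD.B10 libraries. Both NOD.B10 values thus lay between the BL/10 values. Its log2 fold change was −0.19 (SE 0.387, adjusted p = 0.84), and the interval from 0.362-fold to 2.12-fold covers both directions. With the second BL/10 library left out, Abca1 was called lower (−0.58, adjusted p = 8.05e-06), and with the first left out it was called higher (0.33, adjusted p = 0.0225). Abcg1, which passes cholesterol to high-density lipoprotein, was at 435 and 251 CPM in BL/10, against 303 and 242 CPM in NOD.B10 (log2 fold change −0.33, adjusted p = 0.644). Leaving out the second BL/10 library made Abcg1 a call (−0.69, adjusted p = 1.89e-04), as did leaving out the first of NOD.B10 (−0.52, adjusted p = 0.0357). Nr1h2, which encodes LXR beta, and Soat1, which esterifies cholesterol for storage, had narrow intervals, from 0.846-fold to 1.21-fold and from 0.914-fold to 1.25-fold. Soat1 lay at 190 and 187 CPM in BL/10, against 204 and 199 CPM in NOD.B10.

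Sterol genes also differed between the libraries of each strain, a pattern noticed after the values were seen. In both strains the library numbered 2 had more RNA for most synthesis enzymes and less for the exporters, though the numbers carry no stated order or pairing. Numbering the libraries of 1 strain the other way would turn the shared direction into an opposite one. The counts below therefore cannot decide whether the strains share a direction. Of 14 sterol synthesis genes, 10 were higher in the second library in both strains and 1 was lower in both, against 24.3% and 24.6% of all genes tested. Beyond the 95% interval for counting error in both strains, 6 were higher (Hmgcs1, Mvd, Idi1, Sqle, Cyp51 and Msmo1) and 0 lower, against backgrounds of 6.09% and 6.29% of all genes. Over all 32 members these counts were 9 and 2. Hmgcs1 was 1.41-fold higher in the second BL/10 library (interval 1.31 to 1.52) and 1.39-fold higher in the second NOD.B10 library (1.27 to 1.51). Idi1 was 2.06-fold (1.66 to 2.58) and 1.35-fold (1.03 to 1.76) higher. Sqle was at 16.0 and 24.8 CPM in BL/10, against 17.1 and 22.0 CPM in NOD.B10. These ratios compare single libraries, not conditions, and the intervals cover counting error only.

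The exporters moved against them. Abca1 was 1.87-fold lower in the second BL/10 library (interval 1.84 to 1.91) and 1.12-fold lower in the second NOD.B10 library (1.1 to 1.14). Abcg1 was 1.73-fold (1.68 to 1.79) and 1.25-fold (1.21 to 1.3) lower. These were the 2 members lower beyond counting error in both strains. Not every synthesis gene took part: Fdft1 was within counting error in BL/10 and 1.33-fold lower in the second NOD.B10 library, and Mvk, Lss, Hsd17b7 and Sc5d were within counting error in both strains. Srebf2 itself was 1.12-fold and 1.03-fold higher in the second library, and Srebf1 was within counting error in both. Over the 14 sterol genes the log2 ratio in BL/10 and that in NOD.B10 had Pearson's r = 0.607 and Spearman's rho = 0.618, and over all 32 members r = 0.249 and rho = 0.537. These describe genes that share the same 4 libraries, and their sign would reverse if the libraries of 1 strain were numbered the other way.

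**Figure D4:**
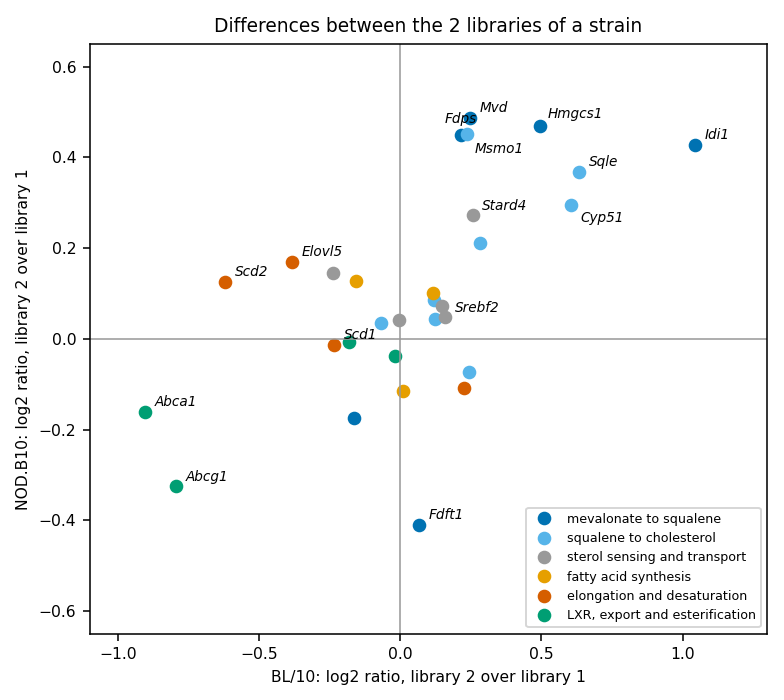
Log2 ratio of the second over the first library in BL/10 (horizontal) and in NOD.B10 (vertical) for 30 of the 32 genes, without Fads1 and Fads2, which had few reads; each point is a gene, coloured by role. Most sterol synthesis genes lie at the upper right and Abca1 and Abcg1 at the lower left.

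Summed per kilobase, the 14 sterol synthesis genes stood at 92.4 and 114 CPM per kb in the BL/10 libraries and at 93.2 and 108 in the NOD.B10 libraries. The sum of Abca1 and Abcg1 was 204 and 112 CPM per kb in BL/10 and 144 and 124 in NOD.B10. Export over synthesis was therefore 2.21 and 0.982 in BL/10 and 1.54 and 1.14 in NOD.B10, with both NOD.B10 values inside the BL/10 range. Plasma cell markers differed between the same BL/10 libraries, with a sum of 1128 CPM in the first and 564 CPM in the second. The sum was 532 and 474 CPM in NOD.B10. Jchain, at 608 and 119 CPM in BL/10, made up most of the gap between the BL/10 libraries. In NOD.B10 most of the sum was Irf4, at 389 and 334 CPM, and Xbp1, at 119 and 123 CPM. Cycling cell markers summed to 163 and 201 CPM in BL/10, against 109 and 95.2 CPM in NOD.B10. The part of either cell type in these differences was not tested.

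**Figure D5:**
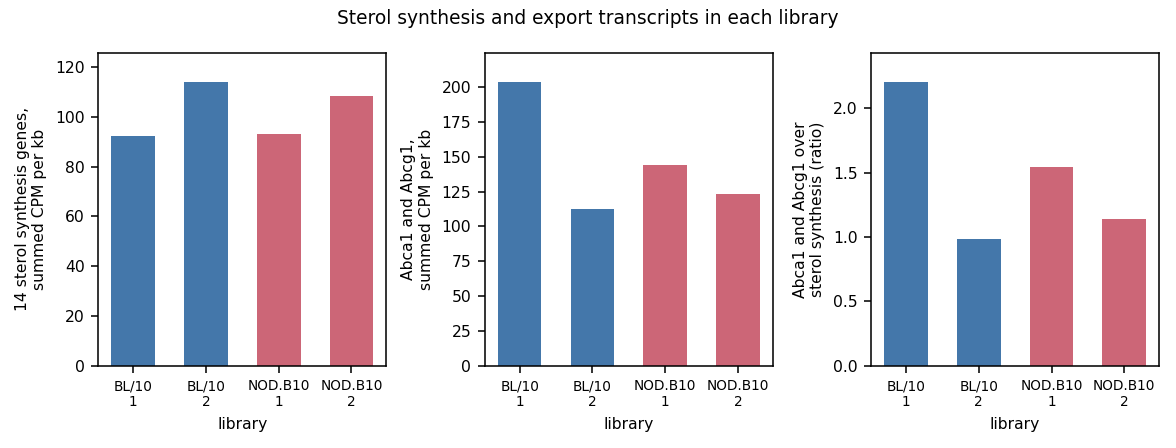
Summed CPM per kb of 14 sterol synthesis genes (left) and of Abca1 and Abcg1 (middle), and the second over the first (right), in each library; bars start at 0 and each is 1 library. The second library of each strain has the taller synthesis bar and the shorter export bar.

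Of 32 other genes of the pathway, 28 were tested. Among these, 4 were called lower, against 8.63% of all genes, and 0 higher, against 6.55%. At an unadjusted p under 0.05, 2 were higher and 4 lower, the called genes included, against 12.5% and 14.3% of all genes. In DESeq2 and limma-voom the count called higher was also 0. The 7 further cholesterol synthesis genes had 0 calls and a median log2 fold change of 0.03, and the 3 SREBP processing genes had 0 calls and a median of −0.12. Among fatty acid genes, Acss2, which makes acetyl-CoA from acetate, was at 14.3 and 11.3 CPM in BL/10, against 7.77 and 4.11 CPM in NOD.B10, a log2 difference of −1.12 (SE 0.300, adjusted p = 0.0261). With the first BL/10 library left out Acss2 was no longer called (adjusted p = 0.0864), nor with the second NOD.B10 library left out (adjusted p = 0.0919). Tecr, an enzyme of fatty acid elongation, was called higher only without a filter (adjusted p = 0.0359) and without the second BL/10 library (adjusted p = 0.00278).

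Among the 8 tested genes of LXR and sterol handling, 3 were called lower, Apoe, Arl4c and Cyp27a1, against the same 8.63% of all genes. Apoe, the apolipoprotein that accepts exported cholesterol and an LXR target, was at 81.0 and 80.8 CPM in BL/10, against 16.7 and 17.6 CPM in NOD.B10. Neither strain spread by more than a small part of that gap, and the fall was 4.72-fold (log2 fold change −2.24, SE 0.131, adjusted p = 8.08e-08). Arl4c, a small GTPase and LXR target, fell 32.1-fold, from 33.9 and 55.3 CPM to 1.92 and 0.940 CPM (adjusted p = 2.46e-04). Cyp27a1, a sterol hydroxylase that makes an oxysterol, was at 15.3 and 9.27 CPM in BL/10, against 4.66 and 6.31 CPM in NOD.B10 (log2 fold change −1.16, adjusted p = 0.0158), a call lost without the first BL/10 library (adjusted p = 0.187). Mylip, an LXR target that promotes breakdown of lipoprotein receptors, was at 395 and 284 CPM in BL/10, against 278 and 279 CPM in NOD.B10. The adjusted p of Mylip was 0.239, and leaving out the second BL/10 library made it a call (adjusted p = 2.12e-04). Nr1h3, which encodes LXR alpha, had 60 and 35 reads in BL/10 and 15 and 33 in NOD.B10 and was not called (adjusted p = 0.476). Lpcat3, also on this list, was not called (log2 fold change 0.04, adjusted p = 0.891). The LXR targets named here thus did not share 1 value: Apoe and Arl4c were called, and Abca1, Abcg1, Mylip, Srebf1 and Scd1 were not.

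Markers bear on which cells these RNAs came from. The counts of calls that follow stand beside 8.63% of all genes called lower and 6.55% called higher. Of 9 B cell markers 1, Fcer2a, was called higher and 0 lower, and their sum was 9039 and 9259 CPM in BL/10, against 10033 and 10652 CPM in NOD.B10, led by Ms4a1 and Cd22. All 12 T cell markers were called lower, with a sum of 445 and 520 CPM in BL/10, against 48.7 and 51.4 CPM in NOD.B10. Tcf7 fell from 63.3 and 80.5 CPM to 2.54 and 1.80 CPM, while Lck, which B cells also express, fell from 64.5 and 75.6 CPM to 38.3 and 45.9 CPM and made up most of the NOD.B10 sum. Of the 12, Themis was at 0 reads in the second NOD.B10 library, and none was at 0 in BL/10. Of 10 cycling cell markers 7 were called lower and 0 higher, with Mki67 at 44.1 ± 12.8 CPM in BL/10, against 14.9 ± 3.55 CPM in NOD.B10, while Mcm5 was not called (adjusted p = 0.568). Of the 6 tested macrophage and monocyte markers 1, Csf1r, was called lower. Mertk, below the filter, had 10 and 8 reads in BL/10 and 2 and 0 in NOD.B10. The 8 listed summed to 42.6 and 40.3 CPM in BL/10, against 41.1 and 24.2 CPM in NOD.B10, so the first NOD.B10 library lay inside the BL/10 range. Cd68 was lower but not called, at 7.87 and 9.42 CPM in BL/10, against 5.18 and 6.23 CPM in NOD.B10, without overlap (adjusted p = 0.160). Adgre1 went the other way, at 7.23 and 5.12 CPM in BL/10, against 10.6 and 8.70 CPM in NOD.B10, without overlap (adjusted p = 0.138). Lyz2 was at 18.1 and 15.9 CPM in BL/10, against 18.0 and 5.29 CPM in NOD.B10, and was not called (adjusted p = 0.714). It made up most of the gap between the macrophage sums of the NOD.B10 libraries. Of 6 plasma cell markers 2 were called lower, Prdm1 and Tnfrsf17, the latter at 0 in the first NOD.B10 library. Jchain was at 364 ± 346 CPM in BL/10, against 10.6 ± 4.84 CPM in NOD.B10 (adjusted p = 0.209). Irf4 and Xbp1 made up most of the NOD.B10 plasma cell sum and were not called. Of 6 germinal centre markers 0 were called, and Bcl6 and Mybl1 led that list. In it 1 marker had an unadjusted p under 0.05, where 12.5% of all genes tested were higher and 14.3% lower. The T cell, cycling cell and plasma cell sums were lower in both NOD.B10 libraries, as were Scd2, Fads1, Acss2, Cyp27a1, Apoe and Arl4c, and the part of these cells in the falls was not tested. The macrophage sum was lower in the second NOD.B10 library alone, mostly through Lyz2. Csf1r and Cd68 were lower and Adgre1 higher in both NOD.B10 libraries. The part of macrophages was not tested either. Adipocyte markers, which would accompany fat around a node, summed to at most 1.3 CPM in any library, with Plin1, Lep and Cidec at 0 reads in all 4; such counts of 0 allow up to 0.0542 CPM over the BL/10 and 0.0669 CPM over the NOD.B10 libraries. Cfd and Retn, the highest of them, were below 1 CPM in each library.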

How the data were processed

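RNA sequencing counts of sorted B cells, 2 libraries each of BL/10 and NOD.B10, were analysed. The authors deposited raw read counts per gene symbol with gene lengths. Per the submitters' processing notes, HISAT2 2.1.0, SAMtools 1.3, Subread 1.6.5 and featureCounts were used on mm10. The annotation, the strand setting and how multiply aligned reads were treated are not given in the sources used here. Totals ranged from 19328803 to 29372751 reads. Columns were matched through the library names.

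Strains were compared across all genes with edgeR 4.0.16 (two-sided glmQLFTest after a robust glmQLFit), run in R 4.3.3, with TMM factors and filterByExpr (minimum count 10, minimum total 15), which left 13075 genes. P-values were Benjamini-Hochberg adjusted. Log2 fold changes are NOD.B10 over BL/10; the SE is the unshrunk coefficient over the root of F, and 95% intervals use the test's degrees of freedom. CPM are TMM-scaled; CPM per kb divides by the deposited length. Ratios between libraries of a strain have exact Clopper-Pearson counting intervals. Alternatives were other size factors, filters and dispersion, DESeq2 1.42.0, limma-voom (limma 3.58.1), a replicate block and each library left out.

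The members and lists were chosen with earlier results of these data known. Named genes were all members, each called gene among the other pathway genes, and the 2 markers of each list with the highest mean CPM; further genes were picked after their values were seen. Of the other pathway genes, 3 had 0 reads in all libraries. Promoters and coordinates are from RefSeq, GRCm38.p6.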

Additional observations from a re-analysis of the deposited data

How the results depend on the processing

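Scd2 and Fads1 remained called lower under each of the 12 alternatives. Over members and alternatives, 374 single-gene values kept their direction or call status, 8 gained a call and 1, Abca1, changed sign with a call: 0.33 without the first BL/10 library and −0.58 without the second. Of the other pathway genes, 326 values kept it, 3 gained and 3 lost a call. With no filter, 1 other pathway gene, Tecr, was called higher, and Cyp51 was called lower. With 1 library left out, members called higher numbered 0 to 1 and lower 3 to 5, and other pathway genes 0 to 1 higher and 2 to 5 lower. These counts are not set beside the share of all genes called in each fit, so no conclusion is drawn from them. In the same settings the members' median log2 fold change ran from −0.17 to −0.011. The log2 ratio of summed CPM ran from −0.18 to 0.10 for elongation and desaturation, from −0.51 to 0.24 for the LXR and export genes and from 0.00073 to 0.076 for fatty acid synthesis. A lone library was assumed to vary like the other strain. The cause of these shifts was not tested. With the replicate number as a block, 1802 genes were called, 760 higher and 1042 lower, against 1986, and 3 members were lower, Cyp51 included (adjusted p = 0.0378). The deviations of same-numbered libraries had a correlation of −0.02 across genes, so the numbers are taken as names only. With 2 libraries a strain, Fads2, with 36 reads in all, could not be estimated closely.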
